A study of Mus musculus with 12 samples.

Results

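Cyclins are proteins whose binding switches on the cyclin-dependent kinases (CDKs), and the genes of both families are described here in mouse cortex after binge-like drinking. They were taken by name: all gene symbols that begin with Ccn followed by a letter, or that consist of Cdk and a number, without pseudogenes and without 1 further cyclin gene that the rule left out. This gave 47 of the 33024 gene symbols counted, 28 cyclin symbols and 19 kinase symbols. The name rule used no measured value, and it also caught Ccndbp1 and Ccnb1ip1, which are binding partners and not cyclins.

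The 12 libraries were bulk RNA sequencing of brain cortex from 12 C57BL/6 mice. The 7 Control mice received vehicle (water), and the 5 EtOH mice had voluntary night-time access to 20% (v/v) ethanol beside water for 35 nights, starting at 30 days of age. After the drinking came 14 days without alcohol and behavioural tests, and the brains were then perfused with saline and dissected. The drinking was voluntary, so that the dose of a given mouse was its own, and all animals carried the unmodified genome of this strain.

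In dividing cells, D-type cyclins with Cdk4 and Cdk6 open the G1 phase, cyclins E and A with Cdk2 drive DNA replication, and cyclins A and B with Cdk1 drive mitosis. Many CDKs have tasks outside division. Cdk7, Cdk9, Cdk12 and Cdk13 phosphorylate RNA polymerase II, Cdk8 and Cdk19 belong to the Mediator complex, Cdk5 is activated in neurons by the non-cyclin proteins p35 and p39, and the Cdk14 to Cdk18 kinases include members that bind cyclin Y and members, such as Cdk16 and Cdk17, that are abundant in postmitotic cells such as neurons. Most cells of adult cortex do not divide.

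Each kinase carries a helix with which it grips its cyclin, and the subfamilies are named after the letters of that helix in the protein. The coding stretches of this helix are shown for the 7 kinases around which the results below turn, because this motif gives the subfamilies their names. Each is read 5′ to 3′ from the Gencode transcripts (GRCm39, release 39), with the 21 bases that encode the 7 residues of the helix motif in capitals and 12 bases to each side in lower case.
Cdk14: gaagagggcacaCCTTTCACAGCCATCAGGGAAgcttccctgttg
Cdk15: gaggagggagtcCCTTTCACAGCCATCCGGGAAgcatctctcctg
Cdk16: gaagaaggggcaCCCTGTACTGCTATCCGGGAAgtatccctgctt
Cdk17: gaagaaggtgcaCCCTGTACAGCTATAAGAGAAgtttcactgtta
Cdk18: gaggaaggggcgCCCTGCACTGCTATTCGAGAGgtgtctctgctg
Cdk12: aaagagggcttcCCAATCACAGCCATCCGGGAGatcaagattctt
Cdk13: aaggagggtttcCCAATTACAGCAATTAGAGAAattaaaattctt
Cdk14 and Cdk15 encode the motif that gives the PFTAIRE kinases their name, and 20 of their 21 motif bases were identical. Cdk16, Cdk17 and Cdk18 encode the PCTAIRE form, with 16 or 17 of 21 bases identical between any 2 of them, and Cdk12 and Cdk13 the PITAIRE form, with 15 of 21. Base identity in the motif did not follow the subfamilies throughout, since Cdk12 shared 18 of 21 bases with Cdk15 and 17 with Cdk14. In the Cdk14 to Cdk18 genes the 45 bases shown span the junction of 2 exons, for example exons 5 and 6 of Cdk14 (chr5:5185403-5245311, minus strand) and exons 7 and 8 of Cdk17 (chr10:93060879-93061896, plus strand). In Cdk12 (chr11:98113495-98113539, plus strand) and Cdk13 (chr13:17937774-17937818, minus strand) they lie within exon 5. Over 15 pairs of related members, the longest run of identical bases shared by the canonical transcripts was 12 to 26 bases.

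The total per library was 31768076 to 40690223 counts in Control and 32048723 to 42183029 in EtOH, and the unit of level is CPM, a gene's counts relative to the TMM-adjusted total of its library. At this depth the floor of 3 counts corresponds to between 0.0695 and 0.0962 CPM per library, which covers counting error only. All mice were separate animals. The dissected tissue differed between the groups in its region markers. In the list of 15 striatal marker genes, 14 were called lower in EtOH, and their summed level was 1285 to 2863 CPM in Control and 395 to 466 CPM in EtOH. In the hippocampal list 10 of 13 genes were called higher, from 324 to 389 CPM to between 659 and 843 CPM. The mean log2 CPM was lower in EtOH for the lists of microglia (by 0.29), neurons (0.16), proliferating cells (0.30) and oligodendrocytes (0.40), and higher for astrocytes (0.13). These 7 lists passed an exact permutation test (two-sided, 792 ways of dividing the mice). The adjusted p over the 12 marker lists was 0.00505 for all but oligodendrocytes (0.0238). As the lists were chosen with earlier results of these data known, these p-values describe the lists and are not independent evidence. The lists of endothelial cells (adjusted p = 0.0892), choroid plexus (0.182), immature neurons (0.0606), blood (0.402) and oligodendrocyte precursors (0.473) did not pass the same exact permutation test. Within the lists some genes went the other way or did not pass: of the 9 astrocyte genes 4 rose and 1, S100b, fell, and of the 16 proliferation genes 3 fell. No marker gene was at 0 in all mice. The lowest summed level in any mouse was 6865 CPM for the neuron list and 3683 CPM for the astrocyte list. It was 3141 CPM for oligodendrocytes and 326 CPM for microglia, so these lists were detected in every mouse. The part of these shifts in the results below was not tested, and in bulk tissue fewer cells of a type and less RNA per cell cannot be told apart.

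Members changed in both directions, mostly by less than the study's fold limit. Of the 47 members, 45 had enough counts to be tested by edgeR's quasi-likelihood test across all 16059 genes that passed the count filter. At an adjusted p under 0.05, 7 members rose (Cdk14, Ccnjl, Ccna1, Cdk12, Ccnj, Cdk7 and Cdk13) and 6 fell (Ccng2, Cdk18, Cdk17, Ccne1, Ccnyl1 and Ccnd1). This was 28.9% of the tested members, beside 23.7% of all tested genes (12.1% higher and 11.6% lower). The counts by role and by pathway list given below rest on 1 to 13 tested genes each and stand beside these same shares of all genes. Adding the study's fold limit, a log2 fold change above 0.5 in size, left 2 members called higher, Ccna1 and Ccnjl, and 0 called lower, 4.44% beside 8.29% of all genes (4.20% higher and 4.09% lower). The count of 0 was from edgeR, and limma voom also gave 0. DESeq2 called 1 lower, Ccnb1, which was also the 1 member below this fold limit at an unadjusted p under 0.05. In edgeR 1 member was called lower without Control 2 or EtOH 1 (Ccnb1) and without EtOH 3 or 4 (Cdk18). At the adjusted p alone, 4 members were higher without EtOH 1 or 3, and 3 were lower without Control 4 or EtOH 5.

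The 7 EtOH and Control ranges that did not overlap belonged to Cdk14, Cdk13, Ccna1 and Ccnjl, where all EtOH mice were above all Control mice, and to Ccng2, Cdk17 and Cdk18, where all were below. This was 15.6% of the tested members, beside 9.81% of all tested genes (4.84% higher and 4.96% lower). The median log2 fold change of EtOH over Control was -0.02 over the tested members and its median size was 0.18, against a median size of 0.15 over all tested genes.

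**Figure D1:**
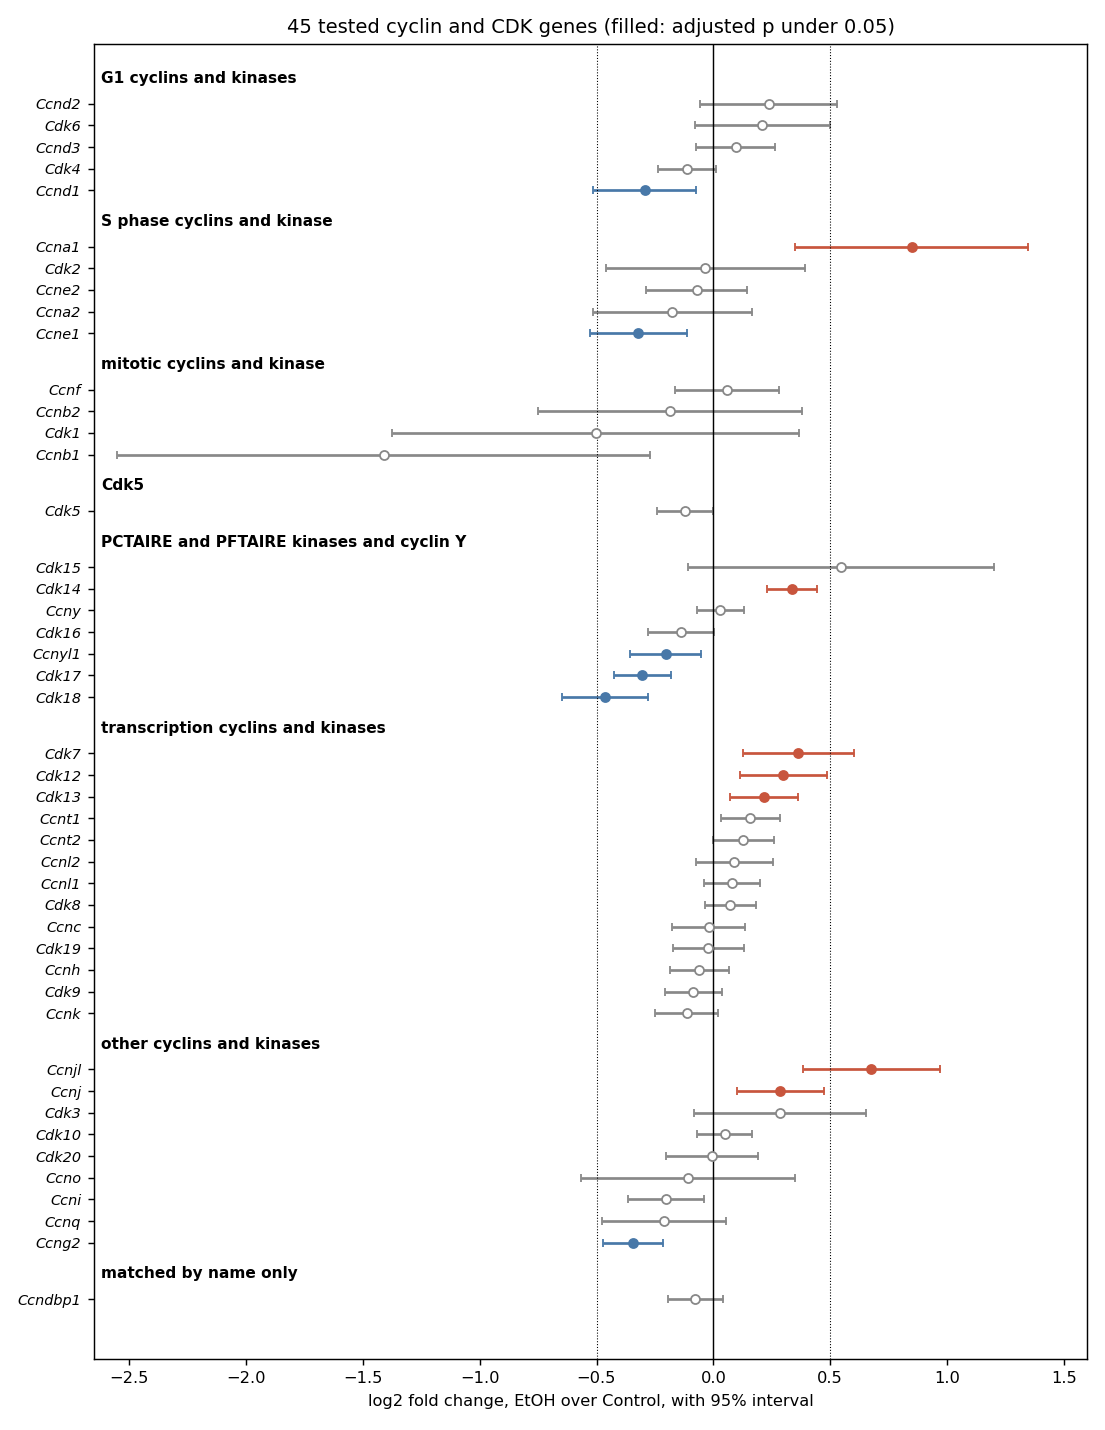
The log2 fold change (EtOH over Control) of the 45 tested members with its 95% interval, by role, with filled points where the adjusted p was under 0.05 and dotted lines at 0.5 to either side of 0. The filled points lie on both sides of 0 and only Ccna1 and Ccnjl lie beyond a dotted line among them, whilst the widest intervals belong to the scarce genes Ccnb1 and Cdk1.

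Of the kinases of the Cdk14 to Cdk18 branch, Cdk14 rose and Cdk17 and Cdk18 fell, whereas Cdk15 and Cdk16 did not pass. These 3 were among the 7 of 45 tested members whose groups did not overlap, and 9.81% of all tested genes did not overlap either. Of the 7 members of this branch (5 kinases and the cyclins Ccny and Ccnyl1), 1 rose, 3 fell and 3 did not pass, beside 12.1% of all tested genes that rose and 11.6% that fell. Cdk14 (chr5:4851602-5470312), a kinase that with cyclin Y phosphorylates the Wnt co-receptor LRP6, ranged from 186 to 215 CPM in Control with a median of 207 CPM. In EtOH mice 1 to 5 it stood at 257, 256, 278, 259 and 241 CPM. All 5 EtOH values therefore lay above the highest Control value, and the log2 fold change was 0.34 ± 0.05 (SE, adjusted p = 0.000132).

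Cdk17 (chr10:92996690-93102933), a PCTAIRE kinase abundant in neurons, ran from 179 to 210 CPM in Control with a median of 194 CPM, and was 159, 173, 151, 150 and 154 CPM in EtOH mice 1 to 5. It fell by 0.30 ± 0.06 on the log2 scale (adjusted p = 0.00104). Cdk18 (chr1:132039975-132072144), the third PCTAIRE kinase, ran from 50.8 to 64.6 CPM in Control with a median of 61.3 CPM, and was 40.6, 34.0, 47.2, 48.9 and 42.0 CPM in EtOH. It fell by 0.46 ± 0.09 (adjusted p = 0.000942). For both genes every EtOH mouse was below every Control mouse, and for Cdk14, Cdk17 and Cdk18 the adjusted p stayed under 0.05 whichever of the 12 mice was left out.

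Cdk16 (chrX:20554193-20567707), the PCTAIRE kinase known for its part in spermatogenesis and vesicle transport, was the most abundant of the branch and did not pass. It was 352 ± 29.7 CPM in Control (SD, n = 7) and 320 ± 26.6 CPM in EtOH (SD, n = 5), with a log2 fold change of -0.14 (95% interval -0.28 to 0.0037, adjusted p = 0.147, or 0.0402 without Control 5). The scarce Cdk15 was 0.458 ± 0.187 CPM in Control and 0.675 ± 0.215 CPM in EtOH, and its interval was wide, from -0.11 to 1.202 (adjusted p = 0.213). Ccny, the cyclin Y gene, was nearly level, at 150 ± 5.26 and 153 ± 7.60 CPM, with an interval from -0.07 to 0.13. Its relative Ccnyl1 (chr1:64729614-64764803) ran from 16.3 to 19.0 CPM in Control with a median of 17.8 CPM, and was 13.4, 16.8, 15.3, 14.4 and 16.1 CPM in EtOH, so that the groups overlapped at 1 EtOH mouse and several Control mice. It fell by 0.20 ± 0.07 (adjusted p = 0.0476), but leaving out Control 1, 2, 4 or 6 or EtOH 1, 3, 4 or 5 raised the adjusted p to between 0.0528 and 0.135, and testing all genes with at least 1 count in any mouse raised it to 0.0777.

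To place these genes on a common footing, each mouse's levels of the 5 kinases were divided by exon length, and the share of each in their sum was compared between groups with an exact two-sided permutation test, adjusted over 8 shares. The share of Cdk14 rose from 10.1% ± 0.716 (SD, n = 7) to 14.1% ± 1.095 (n = 5), a difference of 3.99 percentage points (adjusted p = 0.0101), and the groups did not overlap. The share of Cdk18 fell from 11.8% ± 1.197 to 9.48% ± 1.38 (exact permutation test, adjusted p = 0.0337). Without Control 2, 3 or 4 or EtOH 2 or 5 its adjusted p was between 0.0577 and 0.0667. Cdk17 held 19.3% ± 1.74 in Control and 17.2% ± 1.199 in EtOH (exact permutation test, adjusted p = 0.0741), and Cdk15 held 0.174% and 0.282% (adjusted p = 0.0741 by the same exact test). Cdk16 held 58.6% ± 2.44 and 58.9% ± 2.28 (exact permutation test, adjusted p = 0.842), and was the largest of the 5 shares in both groups. These levels also depended on the length used: in Control, Cdk14 held 13.9% with canonical transcript lengths and 25.3% in counts without lengths, and Cdk18 6.45% and 7.25%, whilst the difference between groups kept its direction and passed for both. That of Cdk17 passed with the other choices, at -3.15 points with canonical lengths (exact permutation test, adjusted p = 0.0404) and -3.80 in counts (0.0168). That of Cdk16 turned in sign, from 0.286 to -0.682 and -2.35 points, and did not pass. All these shares are built from the levels given above, so that they are not evidence separate from them.

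**Figure D2:**
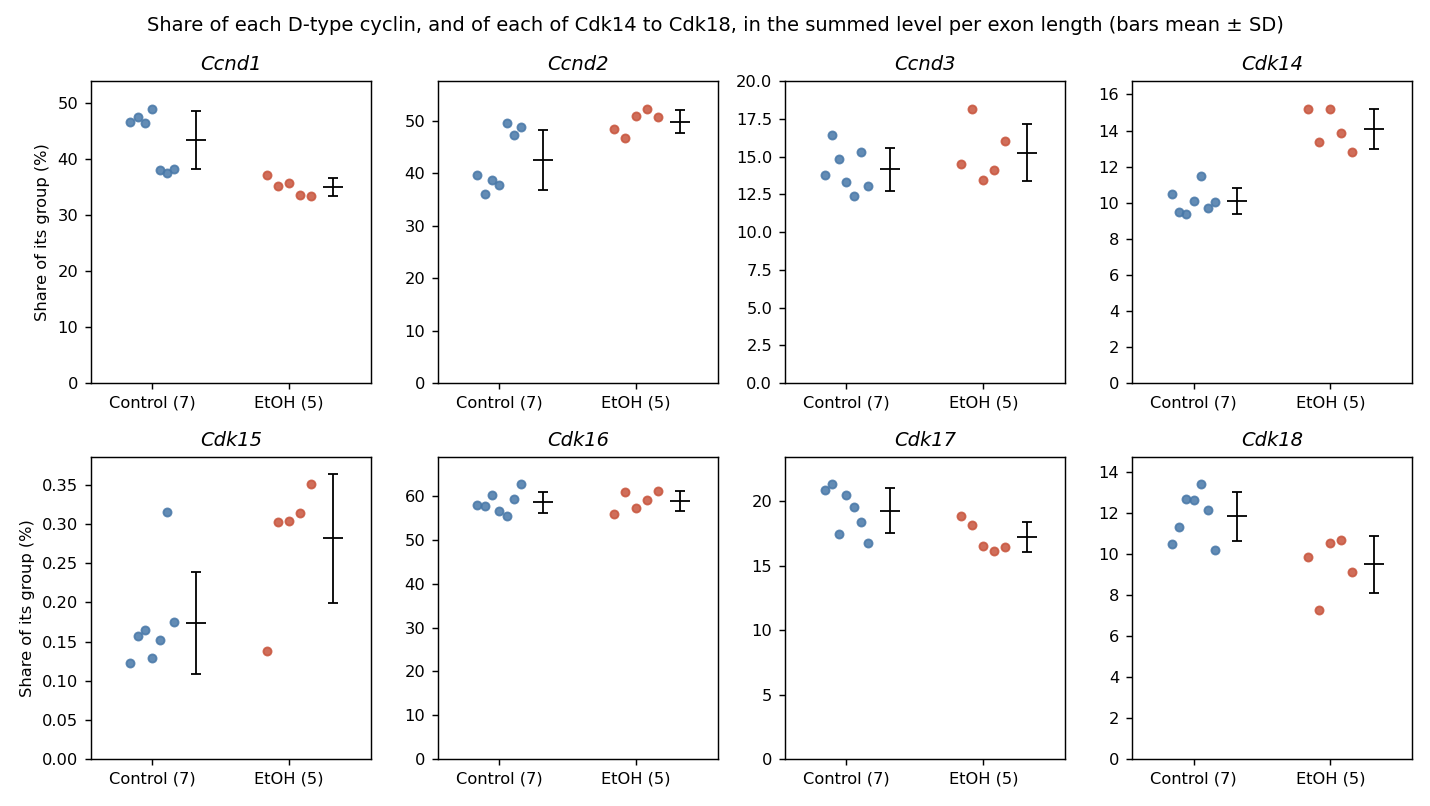
The share (%) of each D-type cyclin in the summed level per exon length of the 3 D-type cyclins, and of each of Cdk14 to Cdk18 in that of the 5 kinases, with 1 point per mouse and bars for the mean ± SD. With these lengths (all exons) the shares of Cdk14 (EtOH above Control) and Ccnd1 (EtOH below Control) are those whose groups do not overlap.

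The transcription group held 13 members, of which 3 kinases rose, none fell and 10 did not pass, so that the share that passed (23.1%) was close to the 23.7% of all tested genes. Cdk12 (chr11:98093565-98170301), a kinase of elongating RNA polymerase II that serves long DNA-repair genes in particular, ran from 19.5 to 31.4 CPM in Control with a median of 24.1 CPM, and was 30.1, 28.9, 31.9, 28.2 and 31.6 CPM in EtOH. Only 1 Control mouse reached into the EtOH range. The log2 fold change was 0.30 ± 0.09 (SE, adjusted p = 0.0206), with adjusted p of 0.0519 without EtOH 3 and 0.0510 without EtOH 5.

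Its close relative Cdk13 (chr13:17884900-17979953) ran from 60.2 to 76.6 CPM in Control with a median of 71.9 CPM, and was 88.6, 77.5, 79.7, 79.5 and 80.6 CPM in EtOH. All EtOH mice were above all Control mice, by a small margin (77.5 against 76.6 CPM), and the log2 fold change was 0.22 ± 0.07 (adjusted p = 0.0295). Leaving out Control 2, 3 or 4 or EtOH 1 or 5 gave an adjusted p between 0.0526 and 0.0761.

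Cdk7 (chr13:100833535-100867481), the kinase of the general factor TFIIH and of the CDK-activating complex, ran from 9.56 to 16.05 CPM in Control with a median of 12.02 CPM, and was 18.3, 15.9, 16.4, 13.99 and 13.8 CPM in EtOH. The groups overlapped, and the log2 fold change was 0.36 ± 0.11 (adjusted p = 0.0254). Without Control 3, EtOH 1 or EtOH 3 the adjusted p was 0.0523, 0.0755 and 0.0548, respectively.

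None of the cyclins of these kinases passed. Ccnk, the partner of Cdk12 and Cdk13, was 35.7 ± 1.78 CPM in Control and 32.9 ± 3.28 CPM in EtOH (log2 fold change -0.11, 95% interval -0.25 to 0.02). Ccnh, the partner of Cdk7, was 43.7 ± 2.63 and 41.9 ± 3.05 CPM (interval -0.19 to 0.06). The elongation kinase Cdk9 was 92.3 ± 6.19 and 87.0 ± 5.63 CPM (interval -0.21 to 0.04), and its cyclin Ccnt1 was 42.5 ± 3.08 and 47.4 ± 2.71 CPM (log2 fold change 0.16, adjusted p = 0.0663). Without Control 1 the adjusted p of Ccnt1 was 0.0280. Ccnt2, Ccnc, Cdk8, Cdk19 and the splicing-linked cyclins Ccnl1 and Ccnl2 had log2 fold changes between -0.02 and 0.13.

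As kinases and cyclins act in pairs, the ratio of their levels per exon length was described in each mouse, with pairs chosen after the values had been seen and with no test. The ratio of Cdk14 to Ccny was 0.449 ± 0.0230 in Control and 0.555 ± 0.0207 in EtOH, and these ranges (0.421 to 0.485 against 0.527 to 0.585) did not overlap. The ratio of Cdk16 to the same cyclin was lower in EtOH by its mean, 2.62 ± 0.227 and 2.34 ± 0.273, and overlapped. The ratios of Cdk12 to Ccnk (0.175 ± 0.0260 and 0.234 ± 0.0123), Cdk13 to Ccnk (0.547 ± 0.0522 and 0.692 ± 0.0678) and Cdk7 to Ccnh (0.139, range 0.0981 to 0.184, and 0.186, range 0.166 to 0.216) were higher in EtOH by their means but overlapped. The ratio of Cdk9 to Ccnt1 was lower by its mean, 3.96 ± 0.470 and 3.33 ± 0.256, and also overlapped. The size of these ratios, though not their direction between groups, depended on the length used, as a length rescales every mouse alike. With all exons the median level over all mice was 10.1 CPM per kilobase for Cdk14 and 21.6 for Ccny. With canonical transcript lengths it was 30.1 and 26.1, so that Cdk14 stood above Ccny. For Cdk9 and Ccnt1 it was 16.9 and 4.58 with all exons, and 21.6 and 20.4 with canonical lengths.

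**Figure D3:**
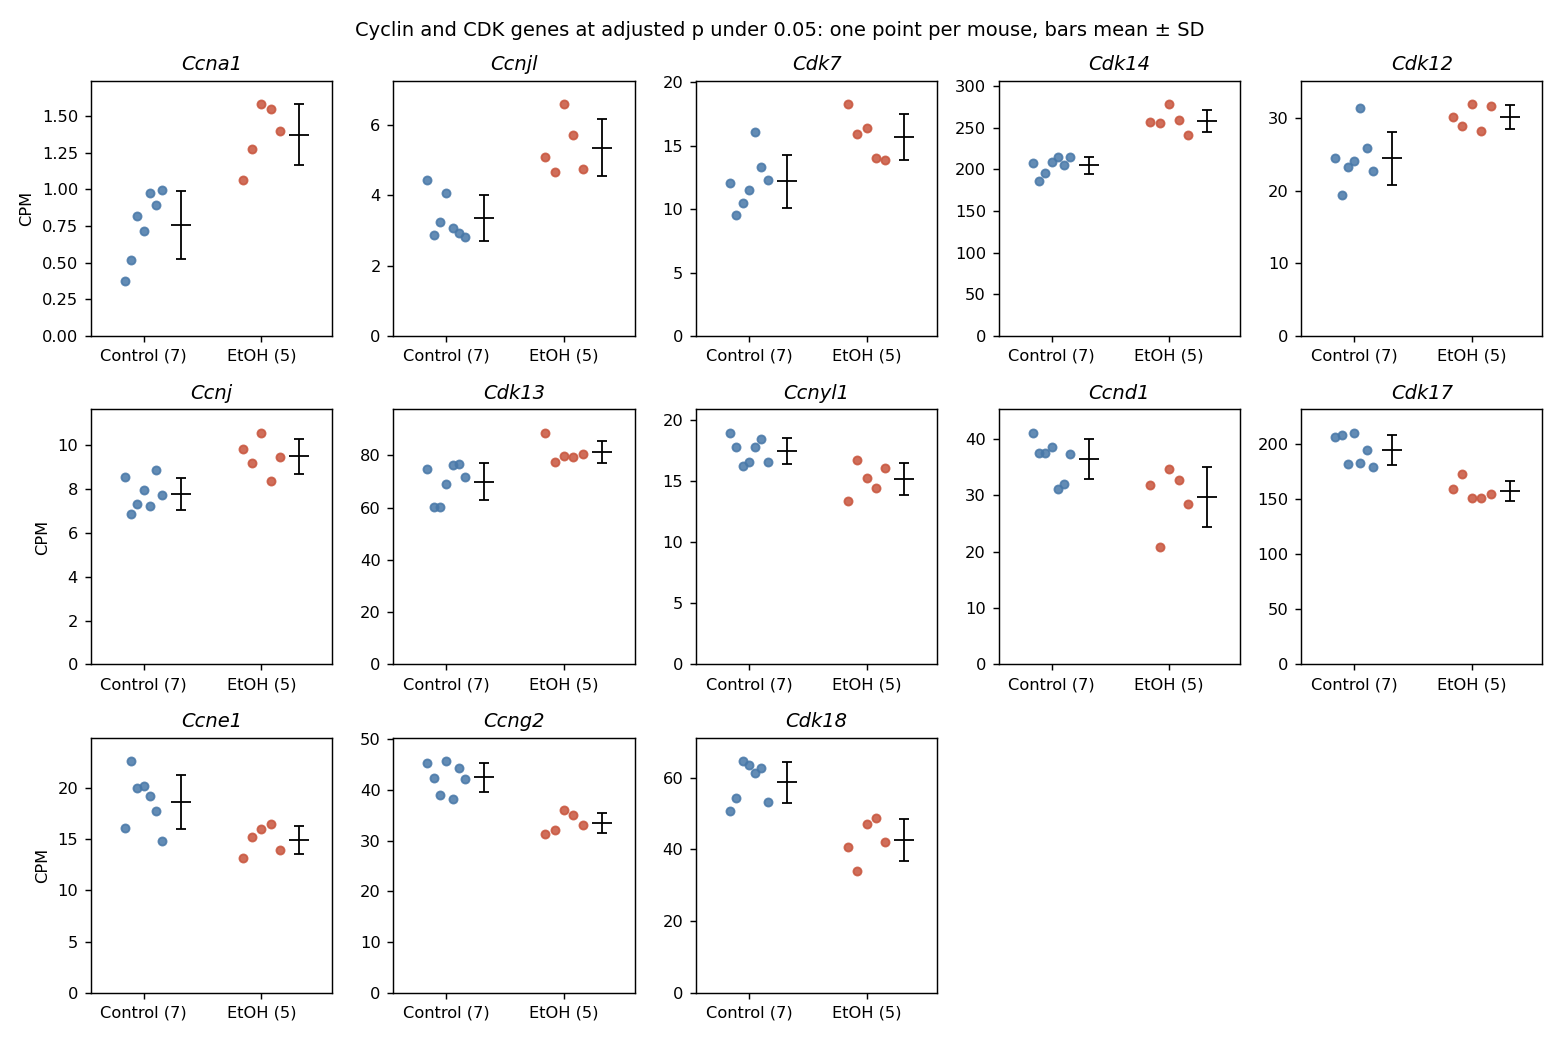
CPM in each mouse for the 13 members at an adjusted p under 0.05, ordered from the largest rise to the largest fall, with each axis starting at 0 and bars for the mean ± SD. All EtOH points lie above all Control points for Ccna1, Ccnjl, Cdk14 and Cdk13 and below them for Cdk17, Ccng2 and Cdk18, and the other 6 genes overlap.

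The 5 G1 members showed 1 fall and 4 genes that did not pass. Ccnd1 (chr7:144483668-144493662), the D-type cyclin through which growth signals reach Cdk4 and Cdk6, ran from 31.2 to 41.1 CPM in Control with a median of 37.5 CPM, and was 31.9, 20.9, 34.6, 32.6 and 28.4 CPM in EtOH. The groups overlapped, and EtOH 2 was the lowest of all mice. It fell by 0.29 ± 0.10 on the log2 scale (adjusted p = 0.0478). The adjusted p was between 0.0607 and 0.0964 when Control 1, 2, 3, 4 or 7 or EtOH 1, 2 or 5 was left out, and without EtOH 2 the change shrank to -0.20.

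Ccnd2, the D-type cyclin of neural progenitors, ran from 56.1 to 94.0 CPM in Control with a median of 68.9 CPM, and was 82.0, 54.9, 97.5, 100.2 and 85.03 CPM in EtOH. EtOH 2 was below all Control mice whilst the other 4 EtOH mice were above the Control median, and the gene did not pass (log2 fold change 0.24 ± 0.14, adjusted p = 0.232). Without EtOH 2 the adjusted p was 0.0387 at a log2 fold change of 0.35. Ccnd3 ran from 19.6 to 25.4 CPM in Control with a median of 23.5 CPM, and was 24.1, 20.97, 25.3, 26.6 and 26.4 CPM in EtOH (interval of the log2 fold change -0.07 to 0.26).

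Within the D-type cyclins the balance shifted away from Ccnd1, on shares built from the same levels as above and therefore not separate evidence. Per exon length, Ccnd1 made up 43.3% ± 5.14 of their sum in Control (SD, n = 7) and 34.9% ± 1.56 in EtOH (SD, n = 5), a fall of 8.37 percentage points (exact permutation test, adjusted p = 0.0337), with no overlap on this scale (37.4% to 48.9% against 33.3% to 37.1%). The composition depended on the length used. With canonical transcript lengths Ccnd1 held 29.9% and 23.4% (adjusted p = 0.0354, exact permutation test) and the groups overlapped (25.1% to 34.5% against 22.0% to 25.2%), and in counts without lengths it held 28.2% and 21.5% with no overlap. The Control mice fell into 2 clusters on this share, with Control 1 to 4 between 46.4% and 48.9% and Control 5 to 7, closest to EtOH, between 37.4% and 38.1%. EtOH 2, lowest in both Ccnd1 and Ccnd2, lay inside the EtOH range. The adjusted p was 0.0577 without Control 2 or 3 and 0.0519 without Control 4. The share of Ccnd2 was 42.6% ± 5.74 and 49.8% ± 2.20 (exact permutation test, adjusted p = 0.0505), falling to 0.0433 without Control 5 and to 0.0381 without Control 7. Ccnd3 held 14.2% ± 1.42 and 15.3% ± 1.88 (exact permutation test, adjusted p = 0.317), but 35.5% and 37.1% with canonical transcript lengths.

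The 2 G1 kinases did not pass. Cdk4 ran from 38.4 to 46.2 CPM in Control with a median of 40.1 CPM, and was 36.3, 40.5, 39.4, 38.7 and 37.6 CPM in EtOH (log2 fold change -0.11, interval -0.24 to 0.01). Cdk6, the scarcer of the pair, ran from 3.09 to 4.84 CPM with a median of 3.51 CPM, and was 3.48, 3.92, 4.53, 4.25 and 5.08 CPM in EtOH (log2 fold change 0.21, interval -0.08 to 0.50).

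Among the 5 genes of DNA replication, Ccna1 rose, Ccne1 fell and 3 did not pass. Ccna1 (chr3:54952890-54963088), the cyclin A known chiefly from the male germ line, had 12 to 40 counts per Control mouse with a median of 26 counts, and 41 to 53 counts per EtOH mouse. In CPM it ran from 0.376 to 0.994 in Control with a median of 0.821, and was 1.07, 1.28, 1.58, 1.55 and 1.40 in EtOH. All EtOH mice were above all Control mice. Its log2 fold change of 0.85 ± 0.24 (SE, adjusted p = 0.0152) was the largest rise of the family, and its adjusted p stayed at or under 0.0398 whichever mouse was left out. The somatic cyclin A gene Ccna2 ran from 1.47 to 2.98 CPM in Control with a median of 2.56 CPM, and was 2.04, 2.33, 2.18, 2.06 and 2.04 CPM in EtOH, inside the Control range (log2 fold change -0.18, interval -0.52 to 0.17).

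Ccne1 (chr7:37797404-37808264), a cyclin E gene that leads into DNA replication with Cdk2, ran from 14.8 to 22.6 CPM in Control with a median of 19.2 CPM, and was 13.2, 15.2, 15.98, 16.4 and 13.9 CPM in EtOH. It fell by 0.32 ± 0.10 (adjusted p = 0.0245), and the groups overlapped. Leaving out Control 2 or 4 or EtOH 1 or 5 gave an adjusted p between 0.0502 and 0.0740. The other cyclin E gene, Ccne2, ran from 6.51 to 9.55 CPM in Control with a median of 7.43 CPM, and was 7.25, 7.56, 8.44, 6.22 and 6.87 CPM in EtOH (interval -0.29 to 0.15). Cdk2 ran from 1.77 to 3.91 CPM with a median of 2.74 CPM, and was 2.55, 1.90, 3.76, 3.09 and 2.34 CPM in EtOH (interval -0.46 to 0.39), and the sign of its small difference turned when single mice were left out.

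None of the 4 genes of mitosis that could be tested passed, and 3 of them (Ccnb1, Ccnb2 and Cdk1) had few counts. Ccnb1 (chr13:100915153-100923116), the main mitotic cyclin, had 4 to 36 counts per Control mouse with a median of 18 counts, and 20, 6, 8, 2 and 0 counts in EtOH mice 1 to 5. In CPM this was 0.123 to 0.879 in Control with a median of 0.574, and 0.464, 0.187, 0.239, 0.0607 and 0 in EtOH, where a count of 0 in EtOH 5 allows up to 0.0912 CPM. EtOH 1 and Control 2 lay closest to the other group. The log2 fold change was -1.41 ± 0.54 (95% interval -2.55 to -0.27, adjusted p = 0.0672 in edgeR). DESeq2 gave an adjusted p of 0.0388, and in edgeR it was 0.0213 without EtOH 1 and 0.0334 without Control 2, so that the call for this gene turned on the tool and on single mice.

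Ccnb2, the other expressed cyclin B gene, ran from 0.574 to 1.19 CPM in Control with a median of 1.00 CPM, and was 0.579, 0.716, 0.894, 1.24 and 0.547 CPM in EtOH, with full overlap (interval of the log2 fold change -0.75 to 0.38). Cdk1, the mitotic kinase, ran from 0.184 to 0.537 CPM in Control with a median of 0.316 CPM, and was 0.0927, 0.124, 0.298, 0.394 and 0.182 CPM in EtOH. Its interval was wide (-1.37 to 0.37), and no difference was detectable at this depth. Ccnf, a cyclin that serves as the substrate-binding part of a ubiquitin ligase, was 5.92 ± 0.813 and 6.17 ± 0.398 CPM (interval -0.16 to 0.28). Ccnb3 had 0 counts in every mouse, which allows up to 0.0962 CPM in any of them. In the list of 16 proliferation genes, 3 of 15 tested were called lower (Top2a, Mcm5 and Aurkb), and the summed level of the whole list was 83.3 to 89.4 CPM in Control and 71.6 to 84.9 CPM in EtOH. Its part in the values of the cell division members was not tested.

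**Figure D4:**
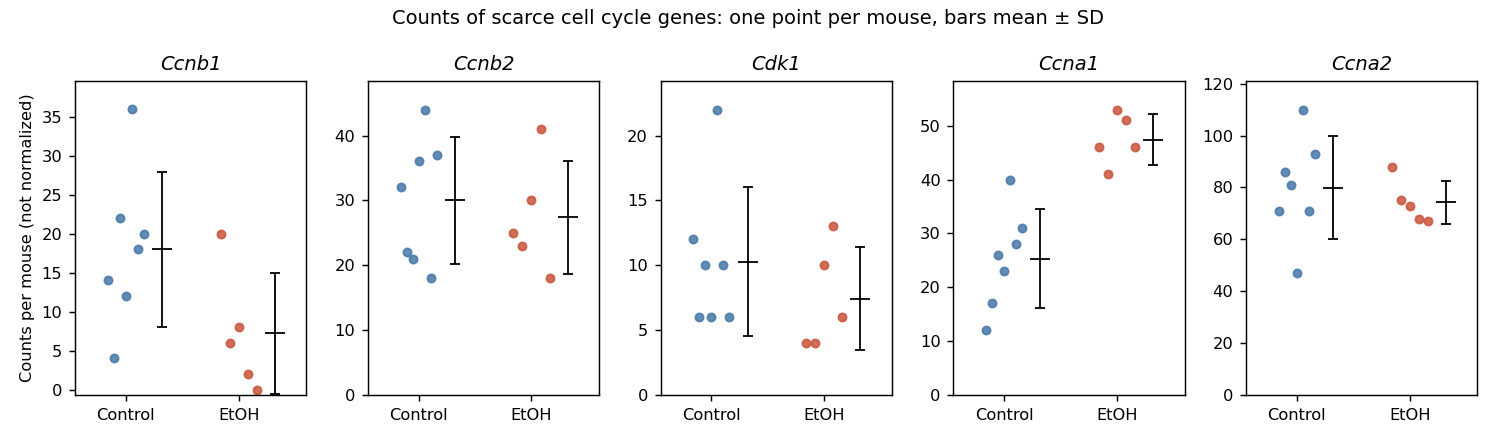
Counts per mouse, not normalized, of 5 scarce cell cycle genes, with bars for the mean ± SD. Ccnb1 runs from 4 to 36 counts in Control and from 0 to 20 in EtOH, and Ccna1 from 12 to 40 in Control and from 41 to 53 in EtOH.

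Cdk5, the CDK of neurons, which shapes migration, axons and synapses, did not pass by itself, whereas both of its activator genes fell. Cdk5 (chr5:24612595-24628594) ran from 99.6 to 125 CPM in Control with a median of 109 CPM, and was 94.4, 98.8, 101.2, 107 and 99.8 CPM in EtOH. The groups overlapped, and the log2 fold change was -0.12 ± 0.06 (95% interval -0.24 to -0.0013, unadjusted p = 0.0479 and adjusted p = 0.133). Cdk5r1, which encodes the activator p35, fell by 0.21 ± 0.05 on the log2 scale (335 ± 6.24 to 290 ± 26.5 CPM, adjusted p = 0.0102). Cdk5r2, which encodes p39, fell by 0.47 ± 0.07 (529 ± 45.8 to 381 ± 34.7 CPM, adjusted p = 0.000101). For both activators every EtOH mouse was below every Control mouse. The neuron marker list was also lower in EtOH, by 0.16 in mean log2 CPM, but its genes did not move as one. Of its 8 genes 5 fell, Map2 rose by 0.18 (adjusted p = 0.0384), and Syt1 and Nefl did not pass. The part of these markers in the values of Cdk5 and its activators was not tested.

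Of the 9 remaining cyclins and kinases, Ccnjl and Ccnj rose, Ccng2 fell and 6 did not pass. Ccng2 (chr5:93415116-93424095), an unconventional cyclin linked to cell cycle arrest and a target of FoxO factors, ran from 38.3 to 45.7 CPM in Control with a median of 42.5 CPM, and was 31.3, 32.1, 36.05, 35.04 and 33.1 CPM in EtOH. All EtOH mice were below all Control mice, and it fell by 0.34 ± 0.06 (adjusted p = 0.000636, at most 0.00290 whichever mouse was left out).

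Ccnjl (chr11:43419304-43477824), a cyclin J-like gene of little-known function, ran from 2.82 to 4.45 CPM in Control with a median of 3.08 CPM, and was 5.08, 4.67, 6.59, 5.70 and 4.74 CPM in EtOH. All EtOH mice were above all Control mice, with a log2 fold change of 0.68 ± 0.14 (adjusted p = 0.00198, at most 0.00849 whichever mouse was left out). Its relative Ccnj (chr19:40819668-40837016) ran from 6.86 to 8.86 CPM with a median of 7.73 CPM, and was 9.85, 9.21, 10.6, 8.37 and 9.48 CPM in EtOH, where only EtOH 4 lay within the Control range. Its log2 fold change was 0.29 ± 0.09 (adjusted p = 0.0250), with adjusted p of 0.0505 without Control 2, 0.0525 without EtOH 1 and 0.0754 without EtOH 3.

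Ccni, an abundant cyclin of postmitotic tissues, was 271 ± 24.8 CPM in Control and 236 ± 26.4 CPM in EtOH (log2 fold change -0.20, adjusted p = 0.0629), with an adjusted p of 0.0468 in DESeq2, and in edgeR of 0.01002 without Control 5 and 0.0175 without EtOH 2. Ccno, Ccnq, Cdk3, Cdk10 and Cdk20 had log2 fold changes between -0.21 and 0.28. Of the genes matched by name only, Ccndbp1 was 41.7 ± 1.79 and 39.5 ± 2.54 CPM (interval -0.19 to 0.04), and Ccnb1ip1 had 0 counts in every mouse.

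Per kilobase of exon, the most abundant members included the neuronal kinase Cdk5 and the PCTAIRE kinases Cdk16 and Cdk17, and the lowest 2 detected were the mitotic genes Ccnb1 and Cdk1. The median over the 12 mice was highest for Cdk16, at 54.1 CPM per kilobase (range 44.4 to 63.0), followed by Ccni (31.4, range 23.7 to 34.8), Cdk5 (26.4), Ccny (21.6), Cdk17 (17.0) and Cdk9 (16.9). On this scale the ranges of Cdk16 and Ccni over all mice did not overlap. Those of Ccni and Cdk5, and of Cdk17 and Cdk9, did. The medians of Cdk17 and Cdk9 were 18.3 and 17.03 in Control but 14.6 and 16.4 in EtOH. Their order on this scale thus turned with the group. With canonical transcript lengths both pairs lay further apart. There the medians over 12 mice were 49.7 for Cdk17 and 21.6 for Cdk9, and 94.0 for Ccni and 49.1 for Cdk5. At the bottom of the detected members stood Cdk15 (0.168), Ccnb1 (0.0948) and Cdk1 (0.0421, range 0.0159 to 0.0922). With the length of the canonical transcript in place of all exons, Cdk16 and Ccni kept the top 2 ranks and Cdk15, Ccnb1 and Cdk1 the lowest 3 among detected members, whilst ranks between changed, for example from 11 to 21 for Cdk18.

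**Figure D5:**
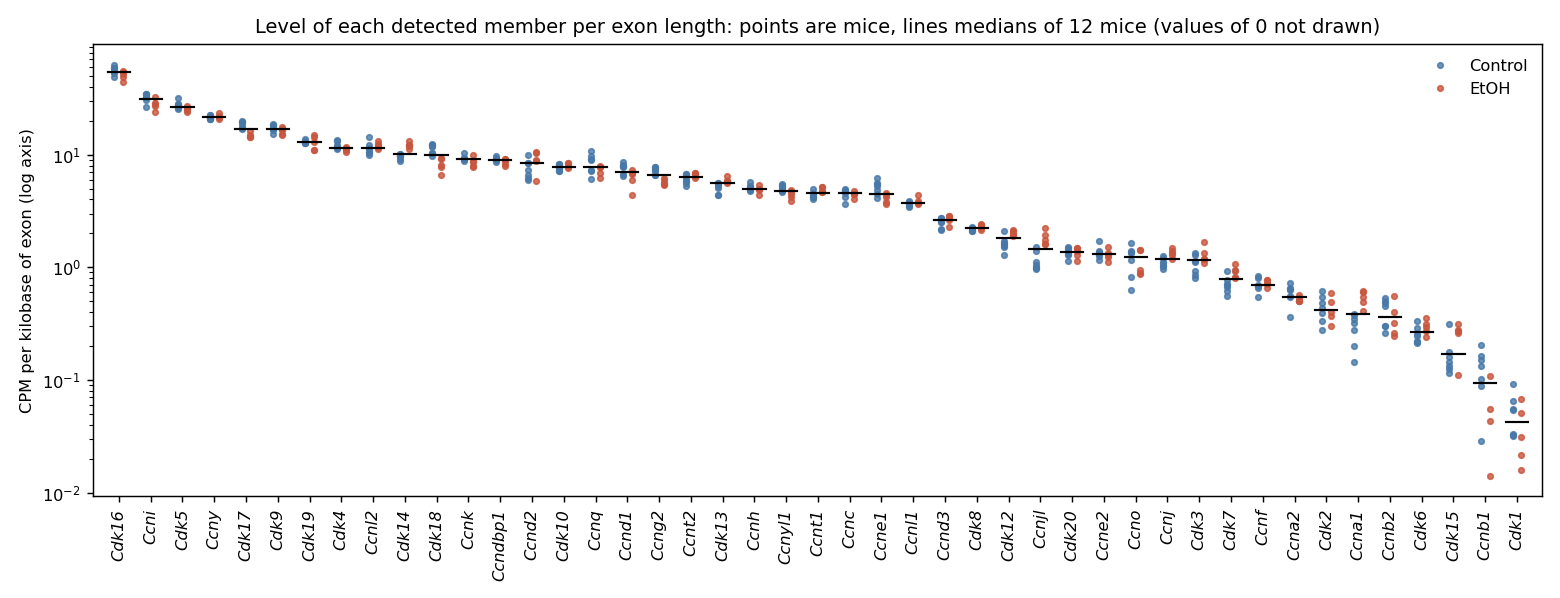
The level of each detected member in CPM per kilobase of exon on a log axis, with points for Control and EtOH mice and a line for the median over 12 mice. Cdk16 stands at the top (54.1) and Cdk1 at the bottom (0.0421), and mice with a count of 0 are not drawn.

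The genes that regulate the family were described from 6 further lists. Of 8 CDK inhibitors, 7 were tested and 1 fell, Cdkn1a, which encodes p21, from 25.7 ± 5.59 to 12.8 ± 4.38 CPM (log2 fold change -1.004 ± 0.19, adjusted p = 0.000974). Cdkn1b, which encodes p27, was nearly level (48.7 ± 2.92 and 47.5 ± 1.116 CPM). Of 11 activators and partners, 2 fell, Cdk5r1 and Cdk5r2, and 1 rose, the centrosomal gene Cdk5rap2 (log2 fold change 0.30 ± 0.08, adjusted p = 0.0160). Of the phosphatases and kinases that act on CDKs, 1 of 5 tested rose, Cdc25b, a phosphatase that activates CDKs, from 20.6 ± 1.59 to 29.6 ± 4.08 CPM (0.52 ± 0.08, adjusted p = 0.000198).

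Among 12 cofactors of the transcription kinases, 4 rose and none fell (33.3%, beside 23.7% of all tested genes in either direction). They were Med12, the Mediator subunit that activates Cdk8 (38.4 ± 8.84 to 61.9 ± 3.38 CPM, log2 fold change 0.69 ± 0.13, adjusted p = 0.000780), its relative Med12l (0.49), Med13l (0.28) and Aff4, a scaffold of the super elongation complex (0.36). The other 8, among them Hexim1 and Larp7 of the complex that holds Cdk9 inactive, did not pass. Of 13 genes of the Rb and E2F axis 2 fell, E2f1 by 0.35 ± 0.11 (adjusted p = 0.0261) and E2f4 by 0.26 ± 0.07 (adjusted p = 0.0171). The adjusted p of E2f1 was 0.0533 without Control 3, 0.0735 without EtOH 3 and 0.0503 without both Control 5 and EtOH 1, and that of E2f4 was 0.0579 without EtOH 1. Of 11 genes of the ubiquitin ligases that destroy cyclins 1 rose, Anapc1 (0.25 ± 0.07, adjusted p = 0.0161). The median log2 fold changes of these 6 lists lay between -0.15 and 0.09.

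In the Gencode annotation, 34 of the 47 members share exon sequence with another gene, and since the strand setting of the counting is not given in the sources used here, their counts may include reads of that neighbour. Where such a neighbour of a member that passed was itself tested, its log2 fold change was 0.02 (LTO1, beside Ccnd1), -0.09 (1600014C10Rik, beside Ccne1), -0.17 (Elk3, beside Cdk17) and -0.02 (Ccdc125, beside Cdk7), and none of the 4 passed. Ccng2, Cdk13 and Ccnj have no such neighbour. For the other members that passed, this could not be checked. The neighbours of Ccna1 and Ccnyl1 were counted but not tested. Those of Cdk14, Cdk18, Cdk12 and Ccnjl were not among the gene symbols counted.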

How the data were processed

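Total RNA of the 12 cortex samples was extracted and sequenced by BGI. According to the study's methods and the submitters' processing notes, reads were checked with FastQC 0.11.9, aligned to GRCm39 with STAR (Gencode release 28) and counted with featureCounts, and the authors' own comparison used DESeq2. The authors deposited 1 table of unnormalized expected counts per gene symbol, with 61 symbols, none of them a member, holding values that are not whole. All 12 columns were matched to mice by name.

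After rounding to whole counts, genes were filtered with filterByExpr (16059 kept), and groups were compared with edgeR 4.0.16 (TMM factors, quasi-likelihood test, Benjamini-Hochberg over all genes tested) in R 4.3.3. A gene was called where its adjusted p was under 0.05 and its log2 fold change exceeded 0.5 in either direction, and "rose" and "fell" refer to the adjusted p alone. The standard error is the log2 fold change divided by the square root of F. CPM uses TMM-scaled library sizes, marker scores are mean log2 CPM with a prior count of 2, and marker scores and shares were compared with the exact two-sided permutation test, whose smallest possible p is 0.00126. Lengths and positions come from Gencode mouse release 39 (GRCm39), which is newer than the authors' annotation, and all 47 members had 1 position in it.

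The members and lists were chosen with earlier results of these data known. Values per mouse are given for members at an adjusted p under 0.05, for 14 cyclins and CDKs of the division cycle and of neurons (Cdk5), and for the members highest and lowest per length. From the pathway lists, called genes and up to 3 others per list that passed are named, with a few named after their values had been seen (Cdkn1b, Hexim1, Larp7). On simulated counts in which 200 genes were moved by 1 on the log2 scale, edgeR recovered 192 with 4 false calls among 15927 genes. Smaller changes, such as most of those reported here, were not simulated. Alternatives were DESeq2 1.42.0, limma 3.58.1 (voom), other normalizations, count filters and fold limits, a replicate block, and leaving out each mouse. Within a group, the counts of any 2 mice differed by more than sampling noise (chi-square per degree of freedom at least 7.76).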

Additional observations from a re-analysis of the deposited data

Results flagged for a closer look

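Within each group of mice, values were checked with Dixon's test for a mouse far from the others. Of 90 groups of values tested 9 were singled out, where chance gives about 4.5 of 90. Cdk13 was highest in EtOH 1, at 88.6 CPM with the next mouse at 80.6 CPM. Ccne2 was highest in Control 1, at 9.55 CPM with the next at 7.82 CPM, and Cdk5 in Control 3, at 125 CPM with the next at 111 CPM.

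The share of Cdk15 among the 5 kinases stood apart at 0.316% in Control 6 (next 0.175%) and at 0.138% in EtOH 1 (next 0.303%). The astrocyte list was highest in EtOH 3, at 7.78 in mean log2 CPM with the next at 7.73, and the blood list in Control 6, at 3.79 with the next at 1.14. The deepest library of each group also stood apart, with 40690223 counts in Control 5 (next 32356913) and 42183029 counts in EtOH 1 (next 33313165).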

How the results depend on the processing

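DESeq2 called 1 member lower, Ccnb1. Without a fold limit 7 members were higher and 6 lower, beside 1947 and 1863 of all genes, and with a limit of 1 no member was higher (0) beside 242 and 282 of all genes. Leaving out 1 mouse at a time gave 0 to 1 members called lower, 4 to 8 at an adjusted p under 0.05 and higher, and 3 to 8 lower. Without Control 5 and EtOH 1, chosen after seeing the data as the deepest libraries, 1 member was called lower, the adjusted p rose above 0.05 for Ccne1 (0.0880), Ccnyl1 (0.152) and Ccnj (0.0650), and it came under 0.05 for Ccnb1 (0.0303) and Ccni (0.0356). The log2 fold change of Cdk2 was 0.1004 in that fit. It ran from -0.18 to 0.06 with 1 mouse left out and was 0.0406 with the replicate block. With the block, over the 5 numbers that both groups share, the adjusted p rose above 0.05 for Ccnyl1 (0.112) and E2f1 (0.0847) and came under it for Ccnd2 (0.0380) and Ccnq (0.0410), whilst 2 members were called higher and 0 lower, as without it. The correlations of deviations of same-numbered mice were -0.108 to 0.018, and no mouse correlated best with its own number. This gave no sign that the numbers pair the animals. It cannot exclude pairing, as a shared cage or litter need not show across all genes, and the labels do not explain the numbers. Shares of counts without lengths gave differences of -2.35 points for Cdk16 and -3.80 for Cdk17 (past the threshold), and canonical lengths, added after seeing the data, -0.682 and -3.15. With 1 mouse left out the differences ran from -9.34 to -7.42 for Ccnd1, 6.19 to 8.43 for Ccnd2, 0.0910 to 0.144 for Cdk15, -0.304 to 1.03 for Cdk16, -2.45 to -1.70 for Cdk17 and -2.64 to -1.79 for Cdk18. The list differences ran from -0.53 to -0.32 for oligodendrocytes, -0.123 to -0.0755 for endothelial cells, 0.60 to 1.80 for choroid plexus and -0.70 to -0.48 for immature neurons. Over all alternatives for the marker lists, 2 results lost and 5 gained significance. The cause of these shifts was not tested. For the 24 members that passed or belong to the division cycle and Cdk5 set, 423 log2 fold changes under these alternatives kept their direction and side of the threshold, 38 lost and 6 gained significance, and 6, all of Cdk2, turned in sign. Of the other members, Ccni came under an adjusted p of 0.05 in 4 alternatives and Ccnt1, Cdk16 and Ccnq in 1 each. Depth limits the genes with few counts, Ccnb1, Ccnb2, Cdk1 and Cdk15.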
